A study of Mus musculus with 6 samples.

Results

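The AP-1 transcription factor genes Jun, Junb, Jund and Fosl1 and the inducible heat shock gene Hspa1a were examined through 6 rows of the deposited expression table, out of 20160. The rows were taken by symbol: Gm20481, whose exons lie inside Hspa1a on the other strand, Gm11175, which lies likewise inside Jund, and the own rows of Jund, Jun, Junb and Fosl1. Gm20481 and Gm11175 were picked because they were lower in RGLS tumours, that is, they were chosen by their CPM in this same contrast, so the difference is described here, and its place among the calls of the test across all rows supports nothing. The own rows of the AP-1 genes were picked to be read beside them, with their values also known, and are described in the same way.

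AP-1 is a dimer of a Jun protein (c-Jun, JunB or JunD) with another Jun or with a Fos protein such as Fra-1, the product of Fosl1. It binds DNA through a basic leucine zipper, and growth factors, stress and wounding switch its genes on within minutes through MAP kinases. Hspa1a and its neighbour Hspa1b encode HSP70, a chaperone that refolds damaged proteins. Both genes are nearly silent in unstressed cells until the heat shock factor HSF1 binds their promoters. High levels of AP-1 proteins and HSP70 are known from many tumours.

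The RGLS group was 3 tumour samples from BALB/c nude mice that had been given RGLS before S-180 cells were injected under the skin. The model group was 3 tumour samples from such mice labelled model. No label tells if each sample was a separate mouse. The labels do not spell out RGLS, and the series title speaks of Ganoderma lucidum spores freed of their outer coat. Dose, mouse age, time of sampling and what the model mice received were not stated. S-180 is a transplantable mouse sarcoma line, which makes it 1 line only, although the title speaks of osteosarcoma. Nude mice lack T cells but keep other white cells, vessels and stroma, so a whole tumour holds host cells too, and fewer cells of a type cannot be told apart from less RNA per cell.

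Values are CPM, reads scaled by the authors to library size, and 1 read was worth 0.0390 to 0.0467 CPM in RGLS libraries and 0.0566 to 0.0575 CPM in model libraries. All rows together held 418102 to 458641 reads in RGLS libraries and 369453 to 387933 reads in model libraries, which is 1.79% to 1.95% of the RGLS libraries and 2.09% to 2.21% of the model libraries. Of the lists of cell type markers, the 9 rows of mesenchymal and sarcoma markers summed to 2.94 to 5.65 CPM in RGLS libraries and to 1.54 to 2.26 CPM in model libraries, so the defining genes of the labelled tissue were themselves at low levels. The 9 skeletal muscle rows summed to 8.41 to 9.57 CPM in RGLS libraries and 2.997 to 3.65 CPM in model libraries. Of these 9, 4 were higher in every RGLS library, as were 3 of the 9 mesenchymal and sarcoma rows, against 6.95% of all rows. The muscle gene Tnnc2 went the other way, with 0.701, 0.349 and 0.374 CPM in RGLS libraries and 0.921, 0.961 and 0.913 CPM in model libraries. The 9 macrophage rows summed to 12.2 to 13.8 CPM in RGLS libraries and 14.8 to 16.8 CPM in model libraries, most of it Csf1r. Without Csf1r the other 8 summed to 3.39, 1.79 and 2.90 CPM in RGLS libraries and 1.44, 2.04 and 1.03 CPM in model libraries, so that the groups overlapped and the lower sum in RGLS was that of Csf1r. These differences move with the groups, and their part in the results below was not tested.

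The loci are shown first as sequence, because the same bases carry both a row of the table and the gene opposite it. All 877 exonic bases of Gm11175 lie within the single exon of Jund, and all 877 are coding bases of Jund. The following 60 bases (GRCm38, chr8:70699299-70699358) are read 5′ to 3′ on the strand of each gene, so that each line is the reverse complement of the other.
Gm11175: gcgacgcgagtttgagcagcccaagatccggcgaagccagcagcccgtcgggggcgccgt
Jund: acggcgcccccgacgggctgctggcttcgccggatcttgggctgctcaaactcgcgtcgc
All 564 exonic bases of Gm20481 likewise lie within Hspa1a, 286 of them in its coding part. The 60 bases below (GRCm38, chr17:34970123-34970182) belong to exons of both.
Gm20481: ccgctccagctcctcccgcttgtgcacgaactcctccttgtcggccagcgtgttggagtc
Hspa1a: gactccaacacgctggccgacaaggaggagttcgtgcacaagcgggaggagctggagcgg
This Hspa1a stretch also occurs letter for letter in the transcript of Hspa1b, a near-identical copy of Hspa1a. Over 2209 aligned bases the 2 transcripts were 99.3% identical, with an exact run of 638 bases. Of the 2 exons of Gm20481, the one of 187 bases matched Hspa1b at 98.4% over its whole length. The one of 377 bases was 97.9% identical over the 341 bases that aligned. Reads of Gm20481, Hspa1a and Hspa1b are therefore uncertain as to their copy. No source used here states the strand setting of the read counter, so a read in Gm11175 or Gm20481 cannot be assigned to that transcript rather than to the gene on the other strand.

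**Figure D1:**
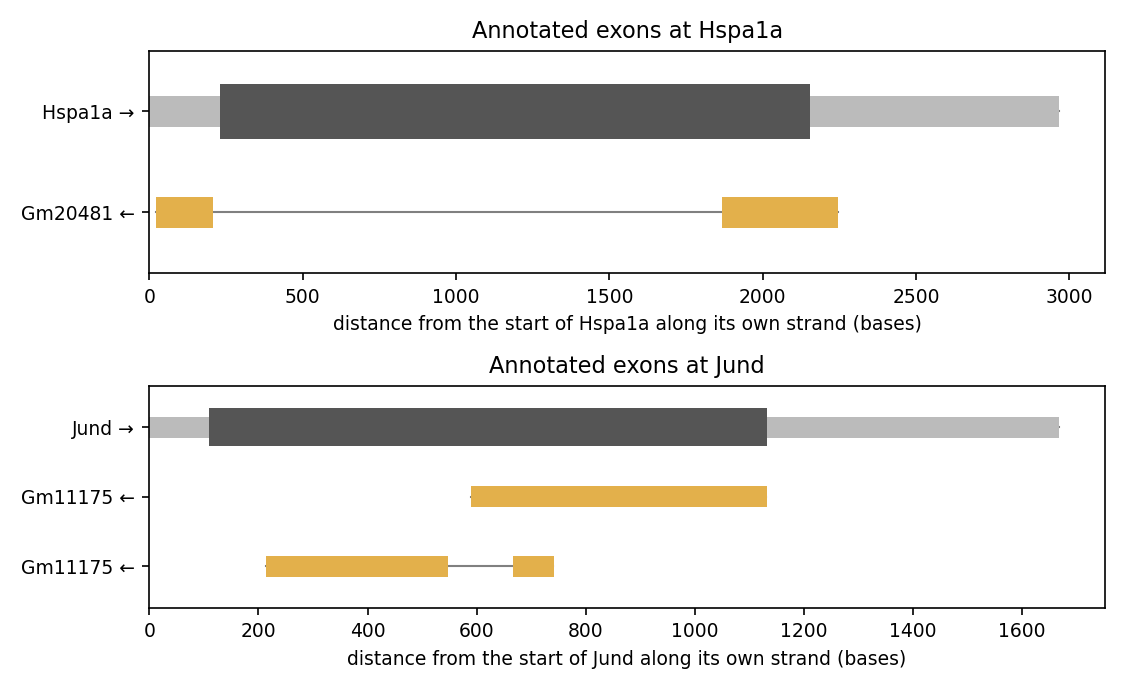
Map of annotated exons at Hspa1a and Jund, with distance in bases from the start of each gene along its own strand on the x axis. Dark grey is coding sequence and light grey the rest of the gene's exon, and the opposite-strand transcripts (yellow) lie entirely inside those exons.

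The Hspa1a locus had a lower level in every RGLS library, in the row opposite the gene. Gm20481 (chromosome 17, 34969912 to 34972136, annotated as protein coding) had 5.88, 4.50 and 3.83 CPM in the RGLS libraries, against 14.1, 15.5 and 16.8 CPM in the model libraries. The highest RGLS library lay well below the lowest model library. Its mean was 4.74 ± 1.05 CPM in RGLS and 15.5 ± 1.34 CPM in model (SD, n = 3 each), a ratio of pooled reads of 0.311 with an exact 95% counting interval of 0.273 to 0.353. The log2 fold change on the log2(CPM + 1) scale was -1.53 (SE 0.16), or -1.37 after subtracting the median of the tested rows, -0.17.

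Hspa1a itself (chromosome 17, 34969190 to 34972156) had almost no reads in its own row, with 2, 3 and 0 in RGLS libraries and 3, 1 and 2 in model libraries. The ratio of 0.626 had a counting interval of 0.151 to 2.46, which holds both the ratio of Gm20481 and 1, so a difference was not detectable at this depth. Of the reads in both rows together, Gm20481 held 98.6% ± 1.42 in RGLS and 99.3% ± 0.428 in model (SD, n = 3 each). Per kilobase of exon the level of Gm20481 was 8.40 CPM in RGLS and 27.4 CPM in model, and that of Hspa1a 0.0235 CPM in RGLS and 0.0386 CPM in model.

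Hspa1b (chromosome 17, 34956436 to 34959238) has no gene on the other strand and was looked at after its values were seen. It had 3, 2 and 1 reads in RGLS libraries and 6, 5 and 5 in model libraries. Its ratio, 0.282, had a counting interval of 0.0903 to 0.758, which contains the ratio of Gm20481. RGLS lay below model without overlap, as it did in 5.15% of the 4914 rows with 20 to 100 reads and in 4.96% of all rows.

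The promoters of Hspa1a and Hspa1b, where HSF1 acts, are near copies as well, identical at 246 of 248 aligned bases. The 250 bases before the start of Hspa1a are printed here from RefSeq (GRCm38.p6, chr17:34972157-34972406, minus strand, 5′ to 3′), with capitals for the match to GAANNTTC, 2 inverted units of the heat shock element.
Hspa1a promoter: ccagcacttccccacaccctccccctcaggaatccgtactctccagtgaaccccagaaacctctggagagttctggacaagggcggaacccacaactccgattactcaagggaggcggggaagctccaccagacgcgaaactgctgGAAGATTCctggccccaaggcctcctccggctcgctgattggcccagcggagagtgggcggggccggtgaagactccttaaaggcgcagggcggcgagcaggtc
The match begins 104 bases before the start, and the same motif stood at the same place in Hspa1b. The pattern GAANNTTC, with N for any base, is its own reverse complement, though the printed match is not. Of 27025 promoter windows of the same length, 6.78% held the pattern. Both promoters also held CCAAT (or ATTGG), the box bound by NF-Y, with 34.5% of all windows, and neither held the everted form TTCNNGAA (7.10% of windows).

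Around Hspa1a, 9 other annotated genes within 50 kb had a row, and only Hspa1l, an HSP70 gene of the testis (chromosome 17, 34972703 to 34979285), reached the tested level. Hspa1l had 5.77, 4.63 and 5.47 CPM in RGLS libraries and 6.04, 8.26 and 5.99 CPM in model libraries. All RGLS libraries were lower, as in 22.1% of all rows tested. The log2 fold change of -0.30 with an SE of 0.17 did not pass (limma adjusted p = 0.315). Gm10501 overlaps it on the other strand over 1778 bases. Of the low rows at this locus, Neu1, a lysosomal sialidase, averaged 0.257 CPM in RGLS and 0.152 CPM in model, and Vars, a valyl-tRNA synthetase, 0.389 CPM in RGLS and 0.513 CPM in model. Near Jund 3 genes had a row and none was tested. Lsm4, an RNA-binding protein of the splicing machinery, averaged 0.235 CPM in RGLS and 0.305 CPM in model, and Pde4c, a cyclic AMP phosphodiesterase, 0.325 CPM in RGLS and 0.0949 CPM in model.

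The Jund locus was also lower in RGLS tumours, in the opposite-strand row and not in the gene's own. Gm11175 (chromosome 8, 70699162 to 70700080, annotated as antisense) had 55.1, 53.6 and 59.5 CPM in the RGLS libraries, against 97.4, 93.5 and 107.5 CPM in the model libraries. The spread within each group was small beside the gap between them, with means of 56.1 ± 3.04 CPM in RGLS and 99.5 ± 7.18 CPM in model (SD, n = 3 each). The ratio of pooled reads was 0.563, with a counting interval of 0.540 to 0.586. The log2 fold change was -0.82 (SE 0.12), -0.65 after subtracting that median, and -0.49 after quantile normalization. At a mean of 77.8 CPM over the 6 libraries it ranked 29th of the 20160 rows.

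Jund (chromosome 8, 70698949 to 70700616), which encodes the most widely and constantly expressed Jun protein, had 1.32, 1.18 and 1.12 CPM in RGLS libraries and 0.978, 1.13 and 0.457 CPM in model libraries. The groups overlapped by a narrow margin, since RGLS 3 lay just under model 2, and model 3 was the lowest of all. The ratio of pooled reads was 1.42, with a counting interval of 0.978 to 2.09, and the log2 fold change was 0.27 (SE 0.20). It was 0.10 without model 3 and 0.66 with edgeR and factors computed from the rows.

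The ratios of the 2 rows of the Jund locus thus lay on either side of 1, but the counting interval of Jund included 1. Gm11175 held 97.7%, 97.8% and 98.1% of the reads of both rows in RGLS libraries. In model libraries it held 99.0%, 98.8% and 99.6%, with no overlap between the groups. This share falls with Gm11175 itself, which was chosen for being lower, so nothing about Jund is read from it. Per kilobase of exon, Gm11175 stood at 63.9 CPM in RGLS and 113 CPM in model, while Jund stood at 0.725 CPM in RGLS and 0.513 CPM in model. Because Jund is so much the smaller, the sum of both rows followed Gm11175, at 57.3 ± 2.98 CPM in RGLS and 100.3 ± 6.83 CPM in model (SD, n = 3 each).

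**Figure D2:**
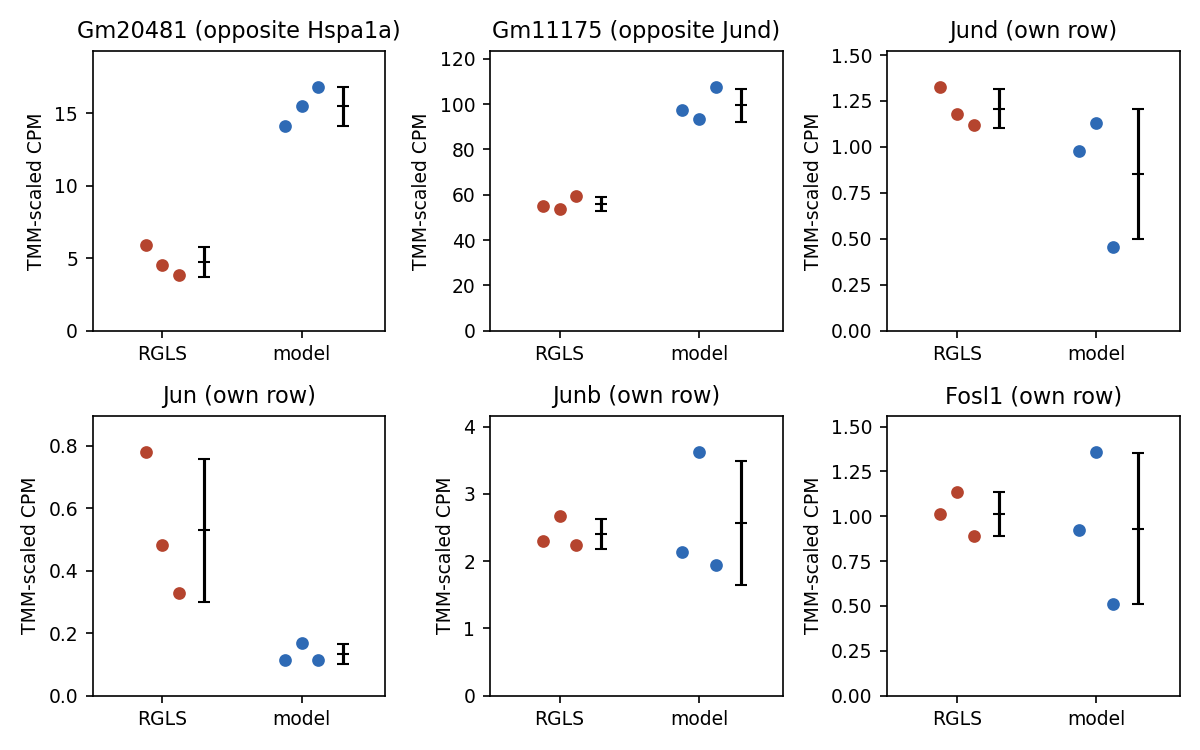
TMM-scaled CPM of the 6 rows, on linear axes that start at 0 and differ between panels, with a point for each of the 3 libraries of RGLS (red) and model (blue) and the mean and SD in black. Gm20481 and Gm11175 separate the groups with RGLS lower, Jun separates them with RGLS higher at under 1 CPM, and Jund, Junb and Fosl1 overlap.

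Jun, the founding member of AP-1, had the largest ratio among the own rows of Jun, Junb, Jund and Fosl1, at a very low level. Jun (chromosome 4, 95049034 to 95052222) had 20, 11 and 7 reads in RGLS libraries, against 2, 3 and 2 reads in model libraries, that is 0.779, 0.481 and 0.327 CPM in RGLS and 0.115, 0.170 and 0.114 CPM in model. Every RGLS library was above every model library, and RGLS 1 was the highest. The ratio of pooled reads was 4.08, with a counting interval of 1.80 to 10.8. Jun did not reach the tested level. Among the 4914 rows with 20 to 100 reads, RGLS was higher without overlap in 13.5% (6.95% of all rows), and the median ratio of these rows was 1.25.

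The row opposite Jun differed in the other direction. Junos (chromosome 4, 95051534 to 95167318), an antisense gene that shares 232 exonic bases with Jun, had 8.22, 7.34 and 8.04 CPM in RGLS libraries and 12.7, 10.3 and 10.4 CPM in model libraries. RGLS lay below model without overlap, as it did in 22.1% of all rows tested. The log2 fold change of -0.45 (SE 0.15) did not pass the test (limma adjusted p = 0.103, 0.0593 to 0.549 over the alternatives). After subtracting the median it was -0.28. Junos held 91.3%, 93.9% and 96.1% of the reads of both rows in RGLS libraries and 99.1%, 98.4% and 98.9% in model libraries.

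The promoter of Jun is known for a variant AP-1 site through which c-Jun acts on its own gene. The 250 bases before its start are printed from RefSeq (GRCm38.p6, chr4:95052223-95052472, minus strand, 5′ to 3′), with capitals for that site and for a match to GAANNTTC.
Jun promoter: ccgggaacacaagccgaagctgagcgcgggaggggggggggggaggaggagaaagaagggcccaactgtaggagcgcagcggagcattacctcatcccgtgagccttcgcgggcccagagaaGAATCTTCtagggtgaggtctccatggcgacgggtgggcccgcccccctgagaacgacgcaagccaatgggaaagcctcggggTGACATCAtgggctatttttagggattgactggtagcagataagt
The site TGACATCA begins 45 bases before the start and the match to GAANNTTC 128 bases before it. On either strand, 3.02% of the 27025 windows held TGACATCA. The canonical AP-1 site TGACTCA (4.43% of windows) and the cyclic AMP element TGACGTCA (1.62%) were in neither this window nor those of Hspa1a and Junb. For Jund the RefSeq start lies 1210 bases before that of GENCODE, so its window was not read as the promoter of the row.

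Junb and Fosl1 did not differ beyond the spread of the libraries. Junb (chromosome 8, 84974484 to 84978718), a Jun protein often opposed to c-Jun in cell growth, had 2.30, 2.66 and 2.24 CPM in RGLS libraries and 2.13, 3.62 and 1.94 CPM in model libraries. Model 2 was above, and the other model libraries below, all RGLS libraries. Its log2 fold change was -0.04 (SE 0.21), and its sign turned to 0.16 without model 2 and to values of 0.05 to 0.14 with equal medians, quantile normalization, equal medians within classes or TMM factors from the rows. Prdx2, a peroxiredoxin that overlaps it over 173 bases, had 8, 4 and 8 reads in RGLS libraries and 3, 9 and 11 in model libraries.

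Fosl1 (chromosome 19, 5447547 to 5455946) encodes Fra-1, which is linked to invasion in many tumours. It had 1.01, 1.14 and 0.888 CPM in RGLS libraries and 0.921, 1.36 and 0.514 CPM in model libraries, so the model libraries spread on both sides of the RGLS libraries. The log2 fold change was 0.08 (SE 0.21), and -0.08 without model 3. Ccdc85b, a coiled-coil gene that shares 1163 bases with it, had 4.91, 4.32 and 5.24 CPM in RGLS libraries and 4.32, 5.77 and 5.99 CPM in model libraries, at a log2 fold change of -0.12 with an SE of 0.17 (limma adjusted p = 0.711).

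Of the 6 rows, 5 had at least 1 CPM in at least 3 libraries and entered the test across 2319 rows, and Jun did not. Limma, at an adjusted p under 0.05, called 2 of the 5 lower (Gm20481 and Gm11175), against 0.517% of all rows tested, and 0 of the 5 higher, against 0.949%. Since both lower rows were chosen for this contrast, nothing is read from that count. RGLS lay below model without overlap in 22.1% of all rows tested and above it in 4.53%, and the rows tested with a gene on the other strand had a median log2 fold change of -0.19, against 0.01 for the rows without. There were 98 tested rows that lie wholly inside the exons of 1 gene on the other strand, as Gm20481 and Gm11175 do. Their median was -0.22, with 10th and 90th percentiles of -0.43 and 0.02, and RGLS lay below model without overlap in 22 of them. Gm20481 and Gm11175 were the 2 called among the 98, both lower. As they were chosen on this contrast, nothing is read from that either.

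The AP-1 family gave no call in its own rows. Of 19 listed genes 18 had a row and 4 were tested, and limma called 0 of them (0 also at an unadjusted p under 0.05, and 0 of 5 with edgeR and 0 of 7 with DESeq2). The tested rows were Jund, Junb, Fosl1 and Maff, a small Maf protein, which had 3.81 ± 0.964 CPM in RGLS and 4.84 ± 1.31 CPM in model (SD, n = 3 each, limma adjusted p = 0.453). Their median log2 fold change was 0.02, against -0.17 over all rows tested.

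Pooled reads can be set beside this, also for rows too low to test. Of 9 family rows, the 4 tested among them, with at least 20 reads, 7 had a ratio of pooled reads above 1 and 2 below, with a median of 1.42, while 51.0% of the 7491 such rows of the table were above 1. The other 5 lists lay on the same side, with medians of 1.28 to 1.74, and the rows with 20 to 100 reads had a median of 1.25, so nothing particular to the AP-1 family is read from this. Mafk, another small Maf, had 13, 13 and 9 reads in RGLS libraries and 5, 5 and 0 in model libraries (ratio 2.63, counting interval 1.28 to 5.96). Mafg had 31, 25 and 19 reads in RGLS libraries and 12, 14 and 10 in model libraries (ratio 1.57, interval 1.04 to 2.40). Jun, Mafk and Mafg were the family rows with at least 20 reads in which every RGLS library was the higher, 3 of 9. The share was 13.5% of rows with 20 to 100 reads, 4.53% of all rows tested and 6.95% of all rows. The 9 span these levels, as Mafg and the tested rows had over 100 reads, so no single share matches them. Jun was also picked with its values known, and nothing is read from this count.

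The classical Fos genes were close to absent. Fos, the usual partner of c-Jun and a gene induced within minutes, had 5 reads in RGLS 2 and 0 in every other library. Fosb had 3, 1 and 0 reads in RGLS libraries and 1, 0 and 4 in model libraries. Atf3, a stress-induced partner of c-Jun, had 6, 4 and 1 reads in RGLS libraries and 0, 0 and 1 in model libraries, so the ratio was 8.27 (counting interval 1.20 to 356). Fosl2, which encodes Fra-2, had 16, 12 and 8 reads in RGLS libraries and 6, 7 and 8 in model libraries. None of these 4 genes has a gene on the other strand in the annotation used.

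**Figure D3:**
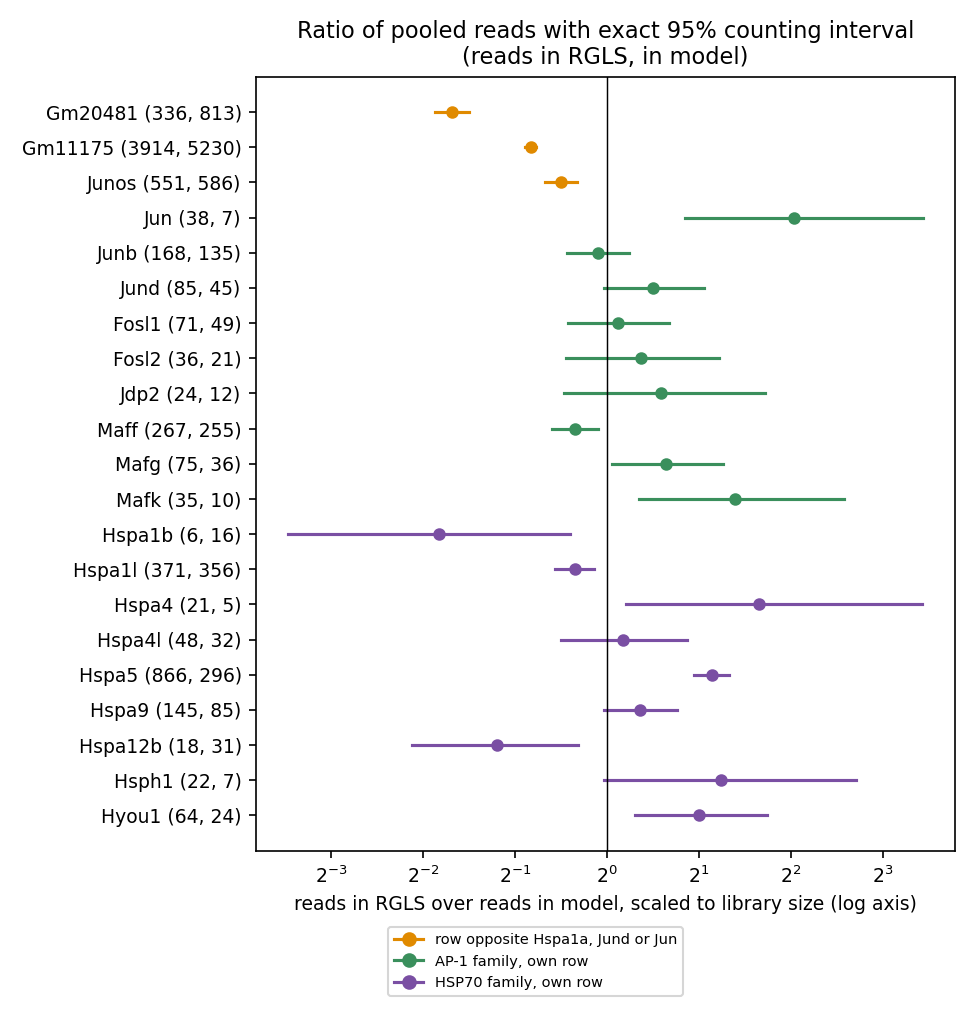
Ratio of pooled reads in RGLS over model, scaled to library size, on a log axis, with exact 95% counting intervals that do not include the spread between samples. The rows opposite Hspa1a, Jund and Jun lie below 1, from 0.311 to 0.707, while 7 of the 9 own rows of AP-1 genes with at least 20 reads lie above 1.

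Rows on the other strand of AP-1 genes differed among themselves. Of 8 such rows Arl2 (opposite Batf2) and Gm47863 (opposite Jdp2), both under 0.5 CPM, had a ratio of pooled reads of 1.32, and the other 6 had ratios below 1. Of the 8, 5 were tested, with a median log2 fold change of -0.40, and limma called 1 lower, Gm11175, which was chosen for it. Junos followed with the value given above, and Gm15655, opposite Maf, was near 0 at -0.08 (limma adjusted p = 0.902). Tmem184a, opposite Mafk, had 4.30 ± 1.19 CPM in RGLS and 5.91 ± 0.590 CPM in model (SD, n = 3 each, limma adjusted p = 0.207). Mafk, Jund and Fosl1 had, like Jun, a ratio of pooled reads above 1 in their own row and a lower mean in the row opposite. So had Maf, at 1.002 on 4 reads in RGLS and 3 in model. The counting intervals of Jund, Fosl1 and Maf included 1. Rows with 20 to 100 reads had a median ratio of 1.25, and tested rows with a gene opposite a median log2 fold change of -0.19. Nothing particular to these loci is therefore read from this.

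HSP70 genes other than Hspa1a and Hspa1b had values in both directions. Of 15 listed genes 14 had a row and 3 were tested, of which limma called 0 (1 at an unadjusted p under 0.05, and 0 of 5 with edgeR and 0 of 6 with DESeq2). Hspa5, the chaperone of the endoplasmic reticulum known as BiP, had 16.7, 13.5 and 6.03 CPM in RGLS libraries and 7.31, 6.39 and 3.20 CPM in model libraries. RGLS 3 fell within the model range, and RGLS was higher by 0.93 ± 0.29 (SE) on the log2 scale (limma adjusted p = 0.0908). Without RGLS 3 it was 1.33 and passed the threshold (limma adjusted p = 0.00174). Hspa9, the mitochondrial member, had 2.02 ± 0.985 CPM in RGLS and 1.61 ± 0.451 CPM in model (SD, n = 3 each, limma adjusted p = 0.729).

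Among the untested HSP70 rows, Hyou1, another reticulum chaperone, had 31, 22 and 11 reads in RGLS libraries and 8, 11 and 5 in model libraries (ratio 2.005, counting interval 1.24 to 3.35). Hspa12b, a distant member found in endothelium, had 7, 2 and 9 reads in RGLS libraries and 12, 11 and 8 in model libraries (ratio 0.436, interval 0.230 to 0.805). Hspa8, the constitutive HSP70 of the cytosol, had only 7 reads in RGLS and 3 in model.

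Other genes under HSF1 did not pass the test either. Of 30 listed, all with a row, 6 were tested and limma called 0 (2 at an unadjusted p under 0.05, and 0 of 10 with edgeR and 0 of 15 with DESeq2), with a median log2 fold change of 0.04. Hsp90ab1, the constitutive HSP90, had 20.2, 19.8 and 12.9 CPM in RGLS libraries and 17.7, 14.0 and 3.99 CPM in model libraries (limma adjusted p = 0.214), with model 3 far below the rest. Stub1, a ubiquitin ligase that works with HSP70, had 5.87 ± 1.68 CPM in RGLS and 8.61 ± 1.69 CPM in model (SD, n = 3 each, limma adjusted p = 0.139), and was called lower without RGLS 3 (limma adjusted p = 0.0266). Sqstm1, an autophagy receptor, had a log2 fold change of 0.28 (limma adjusted p = 0.516), which was 0.0069 without RGLS 2, 0.13 without model 3 and 0.48 without RGLS 1. Of the 2 tested rows opposite such genes 0 were called by limma (1 at an unadjusted p under 0.05, and 0 of 2 with edgeR and with DESeq2).

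Opposite immediate early genes, which are induced together with AP-1, 2 rows fell. Of 3 tested rows opposite them, limma called 2 lower, against 0.517% of all rows tested and 12 of the 1799 with a gene opposite. With edgeR 2 of 3 were called, and with DESeq2 1 of 4 (Gm28592). Gm28592, opposite Phlda1, a growth-regulated gene (chromosome 10, 111506575 to 111507662), had 9.93, 10.1 and 11.4 CPM in RGLS libraries and 18.5, 17.02 and 17.8 CPM in model libraries, or -0.71 ± 0.14 (SE) on the log2 scale (limma adjusted p = 0.0149). The call was lost on leaving out RGLS 1, RGLS 2, model 2 or model 3 (limma adjusted p from 0.0586 to 0.0902). Gm15270, opposite Ccn2, a matrix-associated growth factor gene (chromosome 10, 24549441 to 24597108), had 6.43, 4.67 and 5.33 CPM in RGLS libraries and 10.9, 8.60 and 9.64 CPM in model libraries, or -0.73 ± 0.16 (SE) on the log2 scale (limma adjusted p = 0.0358). It lost its call without any of these 4 or model 1 (limma adjusted p from 0.0664 to 0.145), and in 13 of all 19 alternatives. The list was drawn up with earlier results of these data known. E230016M11Rik, opposite Gadd45a, had a log2 fold change of -0.13 (limma adjusted p = 0.727).

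In their own rows the immediate early genes gave no call. Of 41 listed symbols 38 had a row and 3 were tested, and limma called 0 (1 at an unadjusted p under 0.05, and 0 of 9 with edgeR and 0 of 12 with DESeq2), with a median log2 fold change of 0.44. Myc, the growth regulator, had 2.96, 4.37 and 1.87 CPM in RGLS libraries and 1.90, 1.53 and 0.913 CPM in model libraries, overlapping by RGLS 3 and model 1 alone (log2 fold change 0.71, SE 0.24, limma adjusted p = 0.105). It was called higher without RGLS 3 (limma adjusted p = 0.0217). Mcl1, a survival protein, had 1.45 ± 0.564 CPM in RGLS and 0.798 ± 0.300 CPM in model (SD, n = 3 each, limma adjusted p = 0.243), and Cebpd had 3.41 ± 0.134 CPM in RGLS and 3.92 ± 1.24 CPM in model (limma adjusted p = 0.729).

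Upstream, the MAP kinase genes were tested in few rows. Of 31 listed genes 28 had a row and 2 were tested, and limma called 0 (1 at an unadjusted p under 0.05, and 0 of 4 with edgeR and 0 of 6 with DESeq2). Mapk8ip3, a scaffold of the JNK cascade that phosphorylates c-Jun, had a log2 fold change of -0.27 (limma adjusted p = 0.320). Of 5 tested rows opposite these genes limma called 0 (0 also at an unadjusted p under 0.05, and 0 of 5 with edgeR and 0 of 6 with DESeq2), with a median of -0.26. Among them Mfsd4a, opposite Elk4, had a log2 fold change of -0.26 (limma adjusted p = 0.308).

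Downstream, of 37 genes known as AP-1 targets 32 had a row and 2 were tested, and limma called 0 (0 also at an unadjusted p under 0.05, and 0 of 6 with edgeR and 0 of 11 with DESeq2). Ccnd1, the cyclin through which AP-1 drives entry into the cell cycle, had 1.33 ± 0.172 CPM in RGLS and 1.03 ± 0.180 CPM in model (SD, n = 3 each, limma adjusted p = 0.547). LTO1, the row opposite it over 1100 bases, had 87.2 ± 7.72 CPM in RGLS and 103.1 ± 9.57 CPM in model (limma adjusted p = 0.243), and its log2 fold change turned to 0.14 after quantile normalization. Of 4 tested rows opposite targets limma called 0 (2 at an unadjusted p under 0.05, and 0 of 4 with edgeR and with DESeq2). Gm36026, opposite Krt8, a keratin gene, had 15.6 ± 2.59 CPM in RGLS and 24.6 ± 6.26 CPM in model (limma adjusted p = 0.0646). It was called in 5 of 20 alternatives. Its RGLS libraries lay below model without overlap, as in 22.1% of all rows tested. Gm45774, opposite the metallothionein gene Mt2, had 133.9 ± 35.3 CPM in RGLS and 182.3 ± 45.7 CPM in model (limma adjusted p = 0.161), and turned to 0.03 on the log2 scale after quantile normalization.

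Over the 6 lists, own rows and opposite rows were counted side by side. The 20 tested own rows had a median log2 fold change of 0.06 and 0 calls, and the 20 tested opposite rows had a median of -0.33 and 4 calls, all lower. Without Gm20481 and Gm11175, which were chosen on this contrast, 18 opposite rows had a median of -0.28 and 2 calls, against 0.517% of all rows tested called lower and 1.47% called in either direction. The 4 calls were Gm20481, Gm11175, Gm28592 and Gm15270, and the lists were drawn up with earlier results of these data known. The 12 lower calls over all rows tested all fell among the 1799 rows with a gene opposite, and 0 among the 484 without. The median of these 1799 rows was -0.19. Nothing particular to these lists is therefore read from the counts of own and opposite rows.

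**Figure D4:**
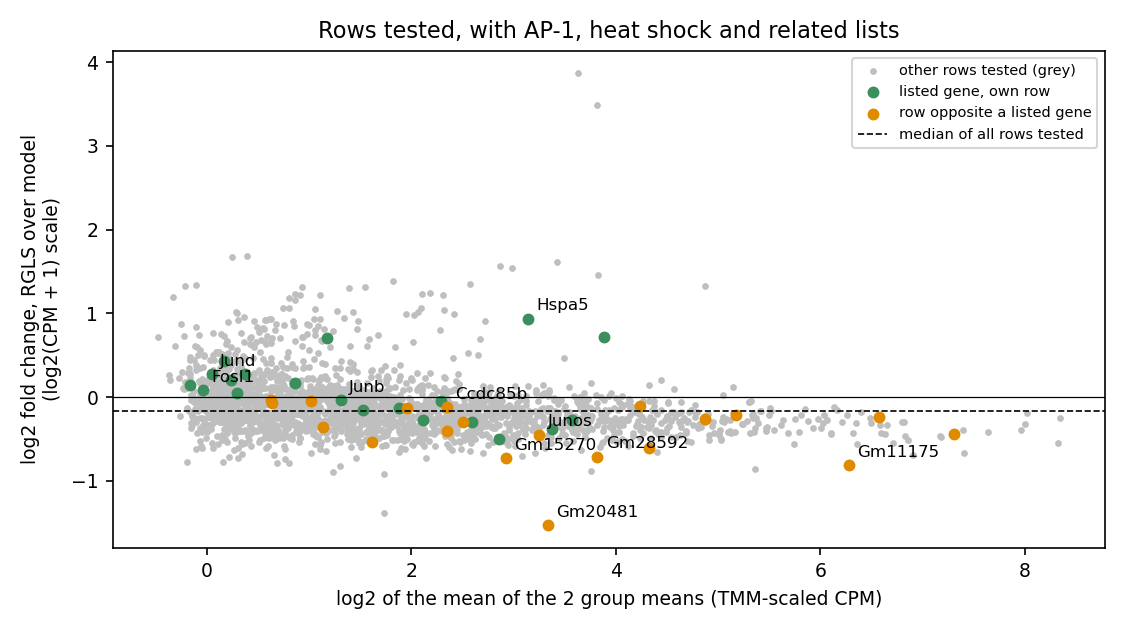
Log2 fold change of RGLS over model on the log2(CPM + 1) scale against the log2 of the mean CPM, for the 2319 rows tested (grey), with own rows of listed genes in green and rows opposite listed genes in orange. Gm20481 lies lowest among the marked rows at -1.53, Gm11175 at -0.82 stands near the high end of the level axis, and the dashed line is the median of -0.17.

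Rows with a profile like those of Gm20481 and Gm11175 were found by the root-mean-square difference of log2(CPM + 1) over the 6 libraries, after subtracting each row's mean. Nearest to Gm11175 were Gm28592, at a difference of 0.0797, Ap3m1 (opposite Vcl, the vinculin gene) at 0.0825, Gm10390 (opposite Rbm19) at 0.115, Plet1os (opposite Plet1) at 0.126 and A730049H05Rik (opposite Adamts9) at 0.126, against a median of 0.377 over all rows tested. All 5 have a gene on the other strand, as do 77.6% of all rows tested but only 6281 of all 20160 rows. The rows nearest to Gm20481 were at larger differences. They were Gm26714 (opposite Tcim) at 0.358, Acbd4 (no gene opposite) at 0.380, Tmem198b (opposite Mmp19) at 0.396, Gm11175 at 0.404 and 8030451A03Rik (opposite Tnc) at 0.411, against a median of 0.737. Seen from Gm11175, Gm20481 ranked 1344 by the same measure.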

How the data were processed

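RNA-seq of 3 RGLS and 3 model tumour samples was analysed from 1 table of 20160 symbols. Per the submitters' processing notes, the authors used Bowtie2, HTSeq and the build mm10. Per the labels' protocols, libraries came from a SMARTER mRNA-Seq kit. The deposited values are TMM-scaled CPM, and 100% were whole multiples of 1 read (tolerance 0.001 of a read), so reads and effective library sizes (21394481 to 25668458 in RGLS, 17377445 to 17683298 in model) were recovered. On these reads edgeR called 35 higher and 14 lower of 3674 rows tested, and DESeq2 37 higher and 10 lower. The unit is not divided by gene length. The number of columns of other samples was 0.

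The test covered the 2319 rows that reached 1 CPM in 3 or more libraries. It was run with limma 3.58.1 (R 4.3.3, intensity trend, 2-sided) on log2(CPM + 1), with Benjamini-Hochberg adjustment over all of them and a threshold of 0.05. Counting intervals are exact 95% intervals of pooled reads. They cover counting error only. Overlap means at least 50 shared exonic bases in GENCODE vM21 (GRCm38, the assembly of mm10), where 19732 symbols were found. Positions are counted from 1. Promoters came from RefSeq (GRCm38.p6), which held a window for Hspa1a, Hspa1b, Jun, Junb and Jund.

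The members, lists and tests were chosen with earlier results of these data known. The text names the members and their partners, every called row and up to 4 more of the lowest p per list, the 5 nearest profiles, and genes within 50 kb of Hspa1a and Jund. Any further row was picked with its values in view. Some rows that this rule names are not reported here. Alternatives were other pseudocounts, filters, priors and scalings, the replicate number as a block, count tests by DESeq2 1.42.0 and by edgeR 4.0.16, other overlap minimums, and leaving out each library. On simulated reads for this comparison, limma tested 2329 and found 59 of the 100 altered 2-fold and 100 of the 100 altered 4-fold, with 13 false calls. The simulation used the same dispersion for every row. Its altered rows were drawn only from rows above a mean level that Jund and Fosl1 did not reach. The recovery therefore does not apply to rows as low as these. Sampling noise alone did not account for any of the 15 library pairs (chi-square over its degrees of freedom, 2.75 to 7.15). No label tells if each sample was a separate mouse, so p-values may measure technical spread.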

Additional observations from a re-analysis of the deposited data

How the results depend on the processing

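Gm20481 and Gm11175 stayed lower in RGLS in all 20 alternatives, with log2 fold changes from -1.70 to -1.07 and from -0.86 to -0.49. Jund stayed higher in all 19 that included it (0.09 to 0.66). Junb and Fosl1 took both signs over their 19 (-0.16 to 0.16 and -0.08 to 0.28). Among the other rows named, 7 that did not pass the test changed sign. After quantile normalization LTO1 was 0.14, Gm45774 0.033, Mfsd4a 0.034, Ccdc85b 0.044, Cebpd 0.022 and E230016M11Rik 0.013. With equal medians within classes Ccdc85b was 0.057, Cebpd 0.048 and E230016M11Rik 0.050, and with TMM factors from the rows Ccdc85b was 0.0073 and E230016M11Rik 0.019. Leaving out 1 library gave Cebpd values from -0.27 to 0.065 (the highest without model 3) and Hspa9 values from -0.0018 (without RGLS 1) to 0.47. Some named rows of the lists that did not pass the test were called in alternatives. These were Gm36026 in 5 of 20, Hspa5 in 3 of 19 and Hsp90ab1 in 2 of 20. Myc and Stub1 were called in 2 of 19 each, and Gm45774 in 1 of 20. Jun entered only the unfiltered limma fit, at 0.42, and DESeq2, at 2.07. Of the 22 higher and 12 lower calls over all rows, the counts moved with nearly every setting, and the cause was not tested. They were 9 and 4 with a pseudocount of 0.1, 52 and 20 with a filter of 0.5 CPM, 4 and 84 with 10 CPM, 208 and 67 unfiltered, 11 and 3 without the intensity trend, and 34 and 41 with a robust prior. With the same median in every library they were 10 and 4, after quantile normalization 7 and 2, and 43 and 4 when edgeR computed TMM factors on these rows. Higher calls were 35 with edgeR and 37 with DESeq2 on the recovered reads. Leaving out 1 library gave 7 to 103 higher and 3 to 106 lower calls, the most without RGLS 3. The share of calls that were higher therefore moved by over 10 percentage points with the scaling. The replicate number as a block gave 111 higher and 120 lower calls and 4 calls among the own rows of the lists. Same-numbered libraries deviated together with correlations of 0.00441, -0.00556 and 0.378, so the numbers were not taken to pair the samples. The 0 calls among own rows of the 6 lists became 4 without a filter and 0 to 3 on leaving out a library. The 4 calls among opposite rows became 2 without the intensity trend, 2 after quantile normalization and 2 to 5 on leaving out a library, and stayed at 4 with overlap minimums of 1 and 200 bases, and were 2 without the members, an alternative chosen after seeing the data. Depth limits the low rows, as Jun had 38 reads in RGLS and 7 in model, Hspa1a 5 in RGLS and 6 in model, and Hspa1b 6 in RGLS and 16 in model.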
